A study of Mus musculus with 6 samples.

Results

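Kruppel-like factors (KLFs) are transcription factors that bind GC-rich and CACCC-type DNA through zinc fingers at their C-terminal end. In mouse embryonic stem cells Klf2, Klf4 and Klf5 support self-renewal and the expression of the pluripotency network, and Klf4 is among the classic reprogramming factors. Other paralogs act in many tissues as activators or as repressors that recruit Sin3 or CtBP co-repressors. The study concerned mRNAs bound by Brf1 (gene Zfp36l1) and Brf2 (gene Zfp36l2), zinc finger proteins that promote the decay of mRNAs with AU-rich elements in the 3′ untranslated region.

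The genes described here were 10 listed KLF genes, taken from the table of gene values by symbol. Rows were found for 9 of the 10, among 18312 gene rows in all: the pluripotency members Klf2, Klf4 and Klf5, and the other paralogs Klf3, Klf6, Klf10, Klf13, Klf15 and Klf16. No row matched the symbol Klf9, which is not analysed here. The rule for the list uses no level, but the members were chosen with earlier results of these data known. In GENCODE M21 the 9 genes lie on 9 different chromosomes, with Klf2 on 8, Klf4 on 4, Klf5 on 14, Klf3 on 5, Klf6 on 13, Klf10 on 15, Klf13 on 7, Klf15 on 6 and Klf16 on 10.

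The labels describe 6 libraries in 3 groups of 2: RNA precipitated from cytoplasmic extract with an antibody against Brf1 and Brf2, RNA precipitated with non-specific rabbit IgG, and total RNA sequenced without precipitation. All come from wild-type E14 cells, an embryonic stem cell line of 129/Ola background, grown in DMEM with 15% serum and 1000 U/ml LIF, the cytokine that sustains self-renewal. The table holds a single profile of 22625281 counts whose columns name no library, and it was therefore placed in no group. Precipitate could not be compared with IgG or with total RNA, no test between groups was made, and no value below measures binding or enrichment. Whether the profile is of a single library or a pool, and of cellular or precipitated RNA, cannot be read from it. The embryonic stem cell label was checked on 8 markers, all with at least 53.9 FPKM (counts scaled to a gene's length and to the total count). Over all genes 56.0% reached 1 FPKM. Of 5 measured primitive endoderm markers none reached 1 FPKM, and of 7 measured fibroblast markers 1 did, Thy1 at 3.74, with Postn at 0. Computed on the plain length of the gene model, 2 fibroblast markers did, with Col1a1 at 1.87. Of 4 measured neural markers 2 did, with Neurod1 highest at 5.31 and Neurog2 at 0. Of 7 endothelium and blood markers, tissues where some KLF genes are abundant, 3 did. These were the beta-globin gene Hbb-b1 at 73.0 FPKM, Pecam1 at 5.61 (8.83 on the plain length) and Tek at 2.51. The part of other cells in the KLF values was not tested.

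AU-rich sequence is what Brf1 and Brf2 recognise, so the sites that the KLF transcripts hold are shown first. The 3′ untranslated regions were read from GENCODE M21 transcripts on the transcript strand, and the motif searched was TATTTAT, which contains the pentamer ATTTA. For each gene the transcript with the longest 3′ untranslated region was taken among those that encode all the KLF zinc fingers. This transcript was chosen after the longest region of any transcript, which gives 4 of 9 members, had been seen. In that longest region 29.5% of 16276 genes held the heptamer, and of the pluripotency members Klf2 alone did. In the finger-encoding transcript 5 of the 9 members held the heptamer, 2 of the 3 pluripotency members and 3 of the 6 other paralogs. The share of all genes was not computed on that choice of transcript. Each site is given as 30 bases, 5′ to 3′, with the heptamer in capitals.
Klf2: aaacagactgcTATTTATtggaccttagga
Klf5: tgttttatcatTATTTATtttgtggtaata
Klf6, nearer the stop codon: gctacgtctctTATTTATgccttgaggact
Klf6, farther from it: cacaccggctgTATTTATtatgtaacattg
Klf10: cagtgtcttttTATTTATaggagtttttca
Klf16: gggaaagaaatTATTTATtgtcctctctga

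The sites of Klf5 and Klf16 extend to the nonamer TTATTTATT, and those of Klf2, Klf6 and Klf10 do not. The Klf2 heptamer lies 80 to 86 bases past the stop codon in a region of 737 bases, and it contains the sole ATTTA of that region. The Klf5 heptamer lies at 1341 to 1347 of 1707 bases. The Klf6 sites begin at 1218 and 1671 of 3111 bases, the Klf10 site at 968 of 1492 and the Klf16 site at 677 of 1797.

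Over 16276 genes of the table with an annotated 3′ untranslated region of at least 50 bases, 29.5% held TATTTAT, 67.8% held ATTTA and 8.15% held TTATTTATT in their longest region. Longer regions hold the motif more often, so each member was also set beside genes whose region lies within 20% of its length. The member's region is that of its finger-encoding transcript, while the other genes have their longest region. Among regions like that of Klf2 19.4% held the heptamer, like that of Klf5 36.3%, like that of Klf10 33.0% and like that of Klf16 37.4%. For Klf6, with 2 sites, the share was 55.3%. The members without a heptamer included both long and short regions. Klf13 held 3 pentamers and no heptamer in 5157 bases, where 68.4% of like regions held a heptamer. Klf3 held 7 pentamers and no heptamer in 3743 bases, with 59.7% of like regions. Klf4 held 1 pentamer in 982 bases and Klf15 held 2 in 950 bases, with 24.5% and 24.1% of like regions holding a heptamer. These shares describe the regions and were not tested, and a match of letters is not a binding site.

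**Figure D1:**
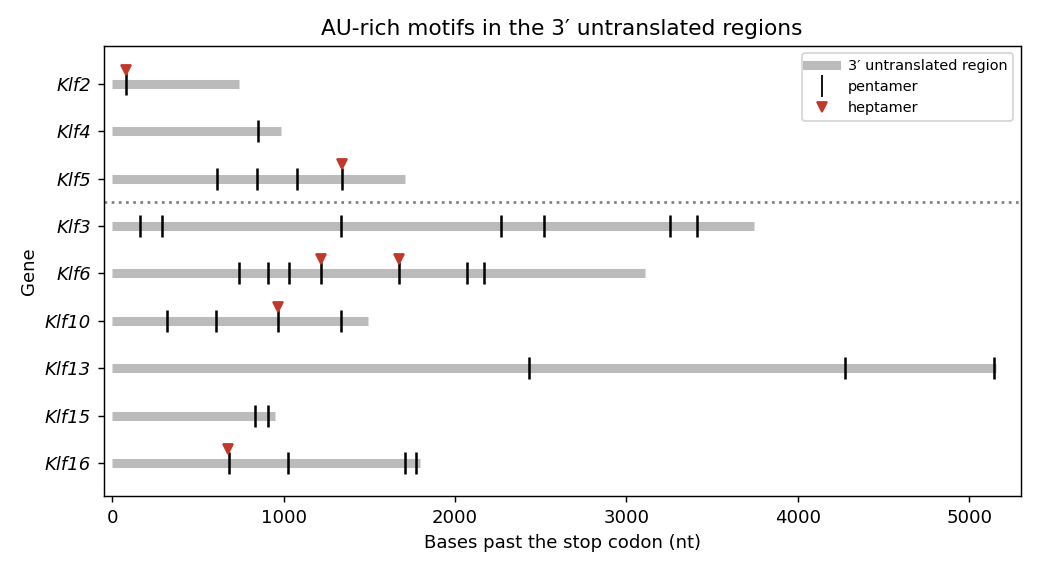
Positions of the pentamer (black ticks) and the heptamer (red triangles) along the 3′ untranslated region (grey bars) of each gene, in bases past the stop codon, with Klf2, Klf4 and Klf5 above the dotted line. Klf2 has its only motif near the stop codon, Klf6 has 2 heptamers, and Klf13 has 3 pentamers in 5157 bases.

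The Klf5 and Klf3 values carry a limit that comes from the table's gene models. For 7 of the 9 members the model was 96.7% to 100.5% as long as the reference transcript. The Klf3 model has 2314 nt against 5221 nt in the reference (44.3%), and the Klf5 model has 1725 nt against 3352 nt (51.5%). The coding part of Klf5 takes 1341 nt, which leaves at most 384 nt of its model outside it. A model that holds the whole coding part therefore ends before the Klf5 heptamer, and reads from that part of the 3′ end would not be counted for Klf5. For Klf5 the answer also depends on the transcript. Its longest 3′ untranslated region, 1841 bases, belongs to a second transcript that does not encode all the fingers, and it held 1 ATTTA and no TATTTAT. The Klf10 site depends on the transcript too, as the shortest Klf10 region, 727 bases, held 0 ATTTA and 0 TATTTAT. The shortest regions of Klf13 (125 bases) and Klf3 (324 bases) held 0 and 2 ATTTA. These shortest regions were taken over any transcript.

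All 9 measured members had at least 1 FPKM, as did 56.0% of all genes in the table, and all 9 also had at least 5 FPKM, as did 38.3% of all genes. Their levels ran from 5.27 to 44.1 FPKM, with a median of 20.9, against a median of 1.94 FPKM over all genes. The members lay between the 62.4th and the 92.2nd percentile of the table. Together they held 16714 counts. Each level is the authors' value with the lower and upper bounds of their table. These bounds cover counting error only, and no replicate stands behind them. In bulk RNA, fewer cells that express a gene and less of its RNA per cell cannot be told apart.

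Among the pluripotency members Klf2 was highest, at 38.6 FPKM (36.7 to 40.5) from 1710 counts. Klf5, which shares self-renewal functions with Klf2 and Klf4, had 30.5 FPKM (29.1 to 31.8) from 1961 counts. Klf4, a target of LIF and Stat3 signalling, had 13.9 FPKM (13.1 to 14.6) from 1469 counts. The 3 sets of bounds lie apart. Klf2 was 2.78 times as high as Klf4, with a 95% interval of 2.59 to 2.99 from the exact binomial interval on their counts with lengths taken as fixed. Klf5 was 2.19 times as high as Klf4 (2.05 to 2.35), and Klf2 was 1.27 times as high as Klf5 (1.19 to 1.35). Computed on the plain length of the gene model, Klf5 (50.2 FPKM) was above Klf2 (41.6), so their order depends on the length used.

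Among the other paralogs Klf6, a broadly expressed early response gene, was highest, at 44.1 FPKM (42.7 to 45.4) from 4125 counts, the most of any member. Klf10, known as a TGF-beta inducible early gene and a Sin3-dependent repressor, had 32.0 FPKM (30.7 to 33.4) from 2260 counts. Klf3, a repressor that recruits CtBP, had 20.9 FPKM (19.8 to 21.9) from 1637 counts. Klf6 and Klf10 lay in the upper part of the members, and Klf3 was their median. Klf6 was above every pluripotency member on the effective length and below Klf5 on the model length.
Klf16, another Sin3-dependent repressor, had 18.2 FPKM (17.2 to 19.2) from 1304 counts. Klf13, known as a regulator of the chemokine RANTES in T cells, had 9.56 FPKM (9.12 to 9.999) from 1890 counts. Its count was above that of Klf2, but its level per length was low on its long effective length of 8739 nt. On its model length of 6396 nt it had 13.1 FPKM. Klf15, a regulator of metabolism in muscle, heart and liver, was lowest, at 5.27 FPKM (4.71 to 5.82) from 358 counts. Klf15 had the widest relative bounds, 10.6% on either side against 3.11% for Klf6.

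In order of FPKM the members ran Klf6, Klf2, Klf10, Klf5, Klf3, Klf16, Klf4, Klf13, Klf15, so Klf2 stood below 1 of the other paralogs, Klf5 below 2 and Klf4 below 4. Of the 36 pairs, Klf10 and Klf5 alone had overlapping bounds. Klf10 was 1.05 times as high as Klf5, with an interval of 0.989 to 1.12. The median of Klf2, Klf4 and Klf5 was 30.5 FPKM (range 13.9 to 38.6), against 19.5 FPKM for the 6 other paralogs (range 5.27 to 44.1). The ratio of the medians was 1.56, and the ranges overlap, that of the pluripotency members lying within that of the other paralogs on the effective length. Klf2, Klf4 and Klf5 held 30.8% of the members' counts and 39.0% of their summed FPKM. A difference between these sets was not tested, because genes are not replicates of a condition.

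The order depends on the length used in FPKM. The authors' effective length, which replaces the model length in FPKM, was 1.65 times the model length for Klf5, 1.54 times for Klf4, 1.498 times for Klf3 and 0.981 times for Klf6, with a median of 1.27 over all genes. On the model length Klf5 was the highest member at 50.2 FPKM, before Klf6 at 43.2 and Klf2 at 41.6. The bounds of Klf6 and Klf2 then overlap, as do those of Klf10 (32.8) and Klf3 (31.3) and those of Klf16 (21.7) and Klf4 (21.3). On that length 3 of the 36 pairs turned round, each of them between Klf5 and another of Klf6, Klf2 and Klf10. All 9 members again had at least 1 FPKM, as did 58.2% of all genes. The places of Klf13 (13.1) and Klf15 (6.90) at the low end did not change. The ratio of the medians of Klf2, Klf4 and Klf5 over the other paralogs was 1.57 on the model length, from 41.6 and 26.5 FPKM. The ranges on that length, 21.3 to 50.2 for Klf2, Klf4 and Klf5 and 6.90 to 43.2 for the other paralogs, still overlap, but the first no longer lies within the second.

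**Figure D2:**
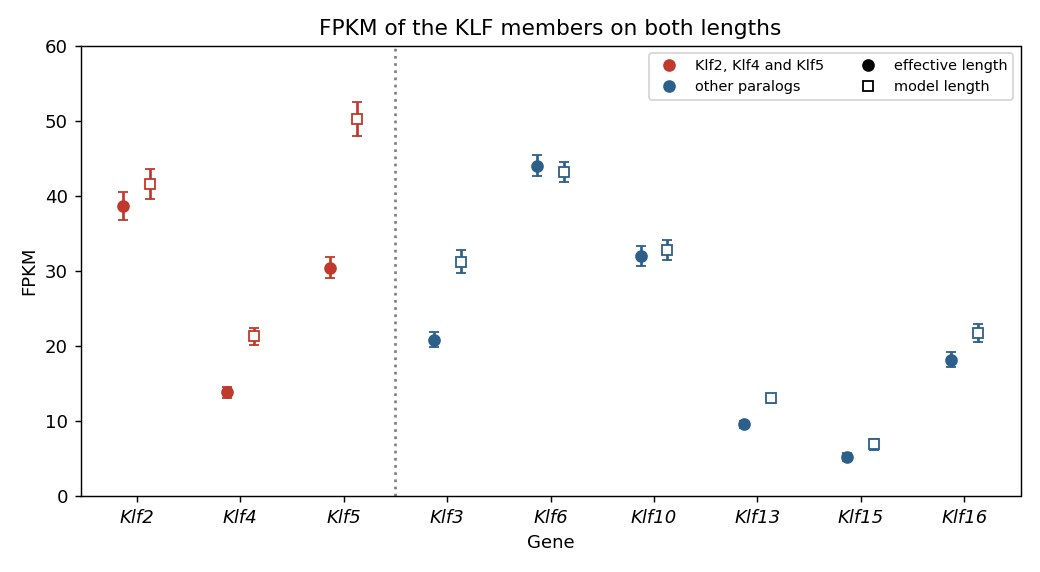
FPKM of the 9 members on the authors' effective length (filled circles) and on the model length (open squares), with bars for the authors' lower and upper bounds, and with Klf2, Klf4 and Klf5 left of the dotted line. Klf5 is at 50.2 FPKM on the model length and 30.5 on the effective length, while Klf6 is at 43.2 and 44.1.

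The zinc fingers are the part that the KLF genes share, and the SP genes hold fingers of the same spacing. Coding sequences were searched for cysteine and histidine codons at the spacing of the 3 KLF fingers, a fixed span of 81 codons (243 bases). Each of the 9 members has a reference transcript with this stretch, and such a transcript was the one used. Between the stretch and the stop codon lies 1 codon in Klf2, Klf4 and Klf6, 2 codons in Klf5 and 3 in Klf3. More codons follow in the remaining paralogs, with 13 in Klf15, 29 in Klf10, 39 in Klf13 and 43 in Klf16. The second finger's 69 coding bases are printed for the pluripotency members and for Klf3 and Klf16, the nearest relative of Klf5 in this stretch and a more distant one, with the paired cysteine and histidine codons in capitals.
Klf2: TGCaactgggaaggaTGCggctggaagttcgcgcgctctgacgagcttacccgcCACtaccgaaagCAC
Klf4: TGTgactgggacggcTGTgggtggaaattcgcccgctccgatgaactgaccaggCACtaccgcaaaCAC
Klf5: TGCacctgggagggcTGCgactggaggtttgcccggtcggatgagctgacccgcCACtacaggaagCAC
Klf3: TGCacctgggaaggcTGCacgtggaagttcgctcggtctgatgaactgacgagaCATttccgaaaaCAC
Klf16: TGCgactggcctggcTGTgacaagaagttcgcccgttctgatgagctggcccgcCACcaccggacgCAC

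In this finger Klf2 differs from Klf4 at 16 of 69 bases. Klf5 differs from Klf4 at 18 bases, Klf3 at 16 and Klf16 at 19. Over the whole 243 bases the 36 pairs of members had a median identity of 64.8% (57.2% to 78.2%). The search requires the paired cysteine and histidine codons, so positions 1 and 2 of those codons are identical in every pair by construction. This fixed part is in all the identities given here, those with SP genes included. The closest pair was Klf2 and Klf4 at 78.2%. At codon positions 1 and 2, which mostly set the amino acid, Klf2 and Klf4 were identical at 92.6% of bases, Klf5 and Klf3 at 88.3%, Klf16 and Klf13 at 84.6%, and Klf6 at 83.3% with each of Klf3 and Klf5. At these positions Klf2, Klf4 and Klf5 had a median identity of 82.1% among themselves and of 71.6% with the other paralogs. At these positions Klf5 was thus nearer to Klf3 and Klf6 than to Klf2 (82.1%) or Klf4 (80.2%). Pairs of a member with an SP gene had a median of 66.7% at these positions (56.8% to 79.6%). Klf15 was nearer to Sp9 and Sp5 (73.5% each) than to any member (71.6% at most). Klf16 had 79.6% with Sp8 and Klf13 had 78.4% with it, both below the 84.6% between Klf16 and Klf13. In FPKM Klf2 was 2.78 times as high as Klf4 (1.95 on the model length), and Klf5 was 1.46 times as high as Klf3 (1.61).

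**Figure D3:**
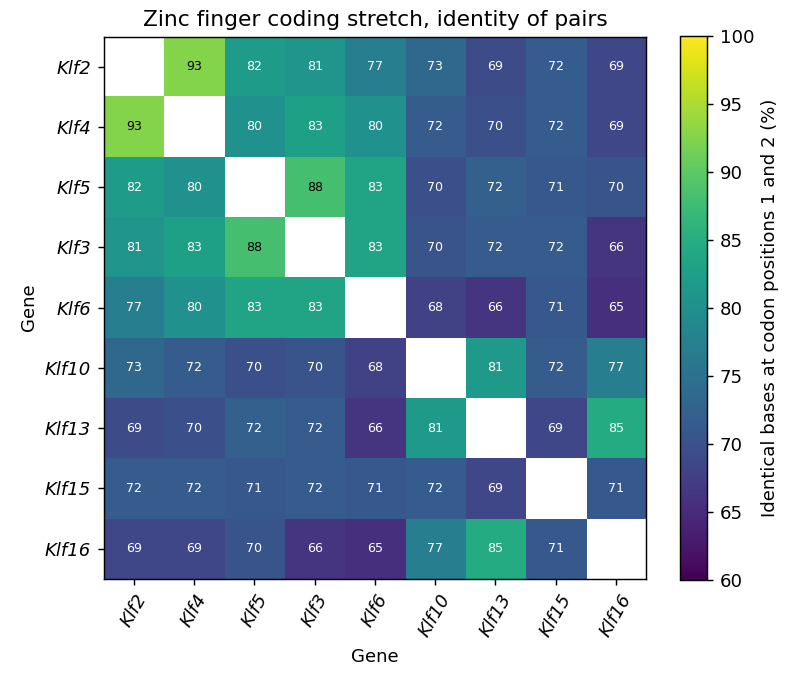
Identity of each pair of members at codon positions 1 and 2 of the 243-base zinc finger coding stretch, in percent, with Klf2, Klf4 and Klf5 first on both axes. The highest cells are Klf2 with Klf4 (92.6%) and Klf5 with Klf3 (88.3%).

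Similar genes can share reads. Total and unique counts did not differ in any row, which leaves no record of reads that 2 genes shared. Between the whole reference transcripts of any 2 members the longest run of identical bases was 12 to 20 bases, with a median of 13 over the 36 pairs. The run of 20 bases was between Klf5 and Klf6. The read length is not given in the sources used here.

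Altogether 16 KLF genes have a row, and the 9 members had 89.5% of their counts. Of the 7 KLF genes outside the member list, 4 had at least 1 FPKM, beside 56.0% of all genes. Their median was 3.45 FPKM, against 20.9 for the members. The members were chosen with earlier results of these data known, and this contrast was not tested. Klf8 was highest at 8.72 FPKM, then Klf11, a relative of Klf10, at 5.75, and Klf17, known from germ cells and early embryos, was lowest at 0.0318 from 3 counts. Klf8 was above Klf15, so the lists overlap in level. The SP genes, which share the finger spacing, had 6 of 9 genes at 1 FPKM or more (7 of 9 on the model length) and a median of 3.66. Over all genes these shares were 56.0% and 58.2%. Sp3, a broadly expressed factor, had 46.4 FPKM (44.8 to 48.0), with bounds that overlap those of Klf6, and Sp1 had 36.2, while Sp9 had 0.0871. On the model length Sp3 had 36.4 and lay below Klf6 at 43.2, and Sp9 had 0.141.

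**Figure D4:**
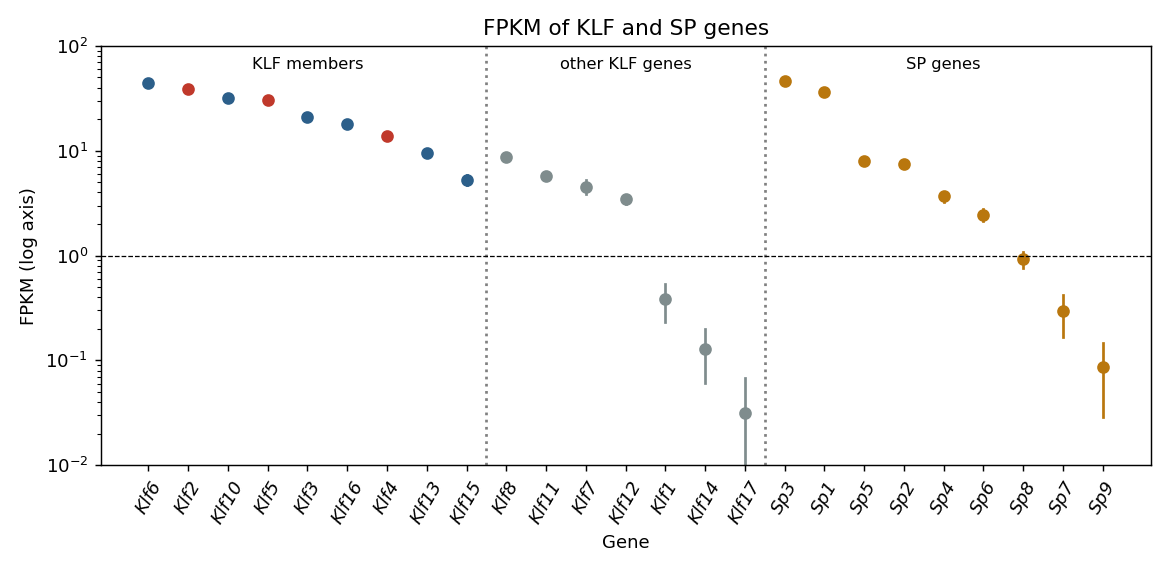
FPKM on a log axis for the 9 KLF members (Klf2, Klf4 and Klf5 in red), the 7 other KLF genes and the 9 SP genes, each with the authors' bounds as a vertical line and 1 FPKM as a dashed line. The members lie between 5.27 and 44.1 FPKM, and the lower bound of Klf17, which is 0, is drawn at the foot of the axis.

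Genes that act with or upstream of the family were read from fixed lists. Over all genes 56.0% reached 1 FPKM, and the list counts were not tested against that share. All 10 measured of 13 listed cofactors and turnover factors reached 1 FPKM, and their median was 22.5. Hdac1, a histone deacetylase of Sin3 complexes, had 154 FPKM, and Ctbp2, the co-repressor partner of Klf3, had 88.8. Crebbp, an acetyltransferase, was lowest at 4.26. On the model length Hdac1 had 275 FPKM and Ctbp2 131. All 9 genes reported here of LIF and Mek/Erk signalling that act on Klf2, Klf4 and Klf5 reached 1 FPKM, and their median was 18.9. Of these 9, the kinase genes Mapk3 and Map2k1 were highest at 41.8 and 41.0, and Tbx3, a factor of the naive network, was lowest at 2.21. On the model length Mapk3 had 63.3 FPKM, Map2k1 56.5 and Tbx3 3.60.
A list of 8 genes that act on Klf9, Klf10 and Klf15 had 5 with a row, all of TGF-beta or thyroid hormone signalling. At least 1 FPKM was reached by 3 of these 5, beside 56.0% of all genes. The receptor Tgfbr1 was highest at 15.7, before Smad3 at 3.64, and the thyroid hormone receptor Thrb was lowest at 0.230. The 8 naive partners ran from Nr5a2 at 10.6 to Pou5f1 at 605 FPKM, with Nanog second at 187. On the model length Pou5f1 had 919 FPKM, and Nanog at 183 came after Zfp42 at 281 and Sox2 at 260.1. On the effective length Klf2 (38.6), Klf5 (30.5) and Klf4 (13.9) lay within the range of the naive partners and below the partners' median of 99.5 FPKM. The other paralogs Klf6 (44.1), Klf10 (32.0), Klf3 (20.9) and Klf16 (18.2) did so too. The antibody's target genes, Zfp36l1 at 42.7 FPKM (41.1 to 44.3) and Zfp36l2 at 22.2 (21.2 to 23.1), had transcripts in the same range of levels as the KLF members.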

How the data were processed

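The submitters' processing notes name eXpress 1.1.1, Bowtie 1.1.2, CASAVA 1.8.2 and the mm9 build, without roles or settings. Per the file headers, the deposited values are read counts, estimated counts (equal to the read counts throughout) and FPKM with bounds on either side. The level of the bounds is not stated there. A row that names no gene, holding the column total of 22625281, was left out. How strand was handled is not given in the headers, so a gene and its antisense partner may share reads. FPKM was recomputed from count, effective length and total within 0.0173%. Counts allow no count model with a single profile, and there are no replicates. Model-length FPKM replaced the effective length. Ratios carry exact binomial 95% intervals, which cover counting error only. Transcripts came from GENCODE M21, on another build than mm9 and from the C57BL/6J strain, so no coordinates are printed. Motif and finger code was tested on simulated data, as were Poisson intervals on single counts. The binomial intervals of the ratios were not tested so. Members and lists were chosen with earlier results of these data known. All 9 members are named, with the 2 highest and the lowest gene of each fixed list that is no marker list, and Zfp36l1 and Zfp36l2. A member of a fixed list is not reported here. Python 3.11.15, pandas 2.3.3 and scipy 1.17.1 were used.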

Additional observations from a re-analysis of the deposited data

How the results depend on the processing

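No paired analysis was possible because no column names a library or a replicate, and for the same reason the comparisons of precipitate with IgG, the other count tests and the left-out libraries were not run. With the model length the median of the 9 members was 31.3 FPKM, that of Klf2, Klf4 and Klf5 was 41.6 and that of the other paralogs was 26.5, while 33 of 36 pairs of members kept their order and 3 pairs had overlapping bounds in place of 1 (an alternative chosen after seeing the data). Of the 9 members, 7 were higher beyond their bounds on that length and 2 stayed within them. The values follow from the length used. The median of Klf2, Klf4 and Klf5 was 22.2 FPKM without Klf2, 34.5 without Klf4 and 26.2 without Klf5, each above the 19.5 of the other paralogs. No gene was left out of the other paralogs in turn. Genes are not replicates, so these medians are no test of a difference between the sets. All 9 members stayed at or above the threshold at 5 FPKM, at a minimum of 10 counts and on the model length. At 5 FPKM, reached by 38.3% of all genes, some list counts moved by over 1.5 times. They became 2 other KLF genes, 1 signalling gene of the Klf9, Klf10 and Klf15 list, 0 fibroblast markers and 1 neural marker. On the model length, where 58.2% of all genes reached 1 FPKM, the count that moved so was 2 fibroblast markers. In the longest 3′ untranslated region of any transcript 4 members held TATTTAT, in the shortest 4, and in the transcript that encodes all fingers, a choice made after seeing the data, 5. The members differ between the first 2 choices: Klf10 held it in its longest region and not in its shortest, and Klf5 the reverse. In the longest region 9 held ATTTA and 1 held TTATTTATT, beside 67.8% and 8.15% of 16276 genes. In the shortest region 7 members held ATTTA and 2 held TTATTTATT. Among genes with regions like in length to the member's finger-encoding transcript, the share with ATTTA ran from 62.9% for Klf2 to 99.5% for Klf13. Median finger identity was 71.6% at codon positions 1 and 2, also chosen after seeing the data, against 64.8% at all positions.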
